A study of Mus musculus with 16 samples.

Results

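The 10 genes described here encode regulators of Notch signaling and of the secretory lineage in the intestinal epithelium: Dll1, Dll4, Notch1, Hes1, Atoh1, Gfi1, Spdef, Neurog3, Neurod1 and Foxa2. They were taken by name from the 23299 genes of the deposited table, by summing the transcripts of each gene, and all 10 were present. In the crypt, Delta-type ligands on one cell activate Notch receptors on its neighbour, the cleaved receptor joins the DNA-binding protein RBPJ, and targets such as Hes1 are transcribed. HES1 is a repressor of Atoh1. Cells that escape Notch activity express Atoh1 and take the secretory fate, from which goblet, Paneth and enteroendocrine cells arise. Notch activity thereby sets the balance between absorptive and secretory cells in the ileum.

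Whole pieces of terminal ileum were profiled by RNA sequencing after 10 weeks on a normal diet (ND) with plain water or on a Western diet (WD), in Tas1r3+/+ and in Tas1r3-/- mice, which makes 4 groups. The WD combined pellets of 60% fat with a drink of 30% sucrose. The knockout is a constitutive germline allele, Tas1r3tm1Csz, backcrossed to C57BL/6, so the deletion was present in all tissues and not in the ileum alone, and age-matched littermates served as controls. The labels give 16 mice, with 2 males and 2 females in each group, but 13 libraries were used. The 2 columns labelled as females of the ND-fed Tas1r3-/- group equalled weighted means of the male columns in nearly all transcripts and were left out, and those of WD-fed Tas1r3-/- mice were averaged into 1 library because they were related to each other. This left 4 ND-fed Tas1r3+/+, 2 ND-fed Tas1r3-/- (both male), 4 WD-fed Tas1r3+/+ and 3 WD-fed Tas1r3-/- libraries. Genotype and sex can therefore be told apart only in part on the ND.

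The values imply 7003820 to 12384384 reads per library (median 9220330). RPKM of Tas1r3, the gene encoding the deleted receptor subunit, was 1.80 to 6.27 in the 8 Tas1r3+/+ libraries and at most 0.00452 in the 5 Tas1r3-/- libraries. The ileal bile acid-binding protein gene Fabp6 was between 738 and 8162 scaled RPKM in the 13 libraries, and all 7 listed absorptive enterocyte genes, 7 goblet products and 7 Paneth products were detected. Leukocyte, endothelial, smooth muscle, neuronal and adipocyte markers were present as well, so the libraries hold whole tissue. In such bulk samples, fewer cells of a type and less RNA per cell cannot be told apart.

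Values below are scaled RPKM: RPKM express reads relative to the length of the transcript and the size of the library, which allows levels to be compared between genes, and each library was then divided by its scaling factor. Without this scaling, the median log2 difference between WD and ND over all genes was -0.38 in Tas1r3+/+ and -0.35 in Tas1r3-/- libraries, and the differences below are relative to these shifts. By the median of the 13 libraries, Spdef (25.1), Hes1 (20.0) and Atoh1 (11.1) were the most abundant members, followed by Dll4 (8.63) and Dll1 (8.53). The medians of Notch1 (2.92), Gfi1 (1.69), Foxa2 (1.68), Neurog3 (1.06) and Neurod1 (0.534) were lower. The ranges over libraries of neighbours in this order overlapped, except that Dll1 (5.19 to 14.1) lay entirely above Notch1 (1.67 to 3.61). Spdef exceeded 84.7% of all genes by its median, and Neurod1 exceeded 19.9%. The read support differed accordingly, with 231 to 710 reads per library for Spdef and 161 to 510 for Atoh1, but 4.96 to 35.2 for Neurog3 and 6 to 26 for Neurod1. Neurod1 did not reach an RPKM of 1 in 2 libraries and was left out of the fits, so 9 of the 10 members were tested among 19042 genes.

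**Figure D1:**
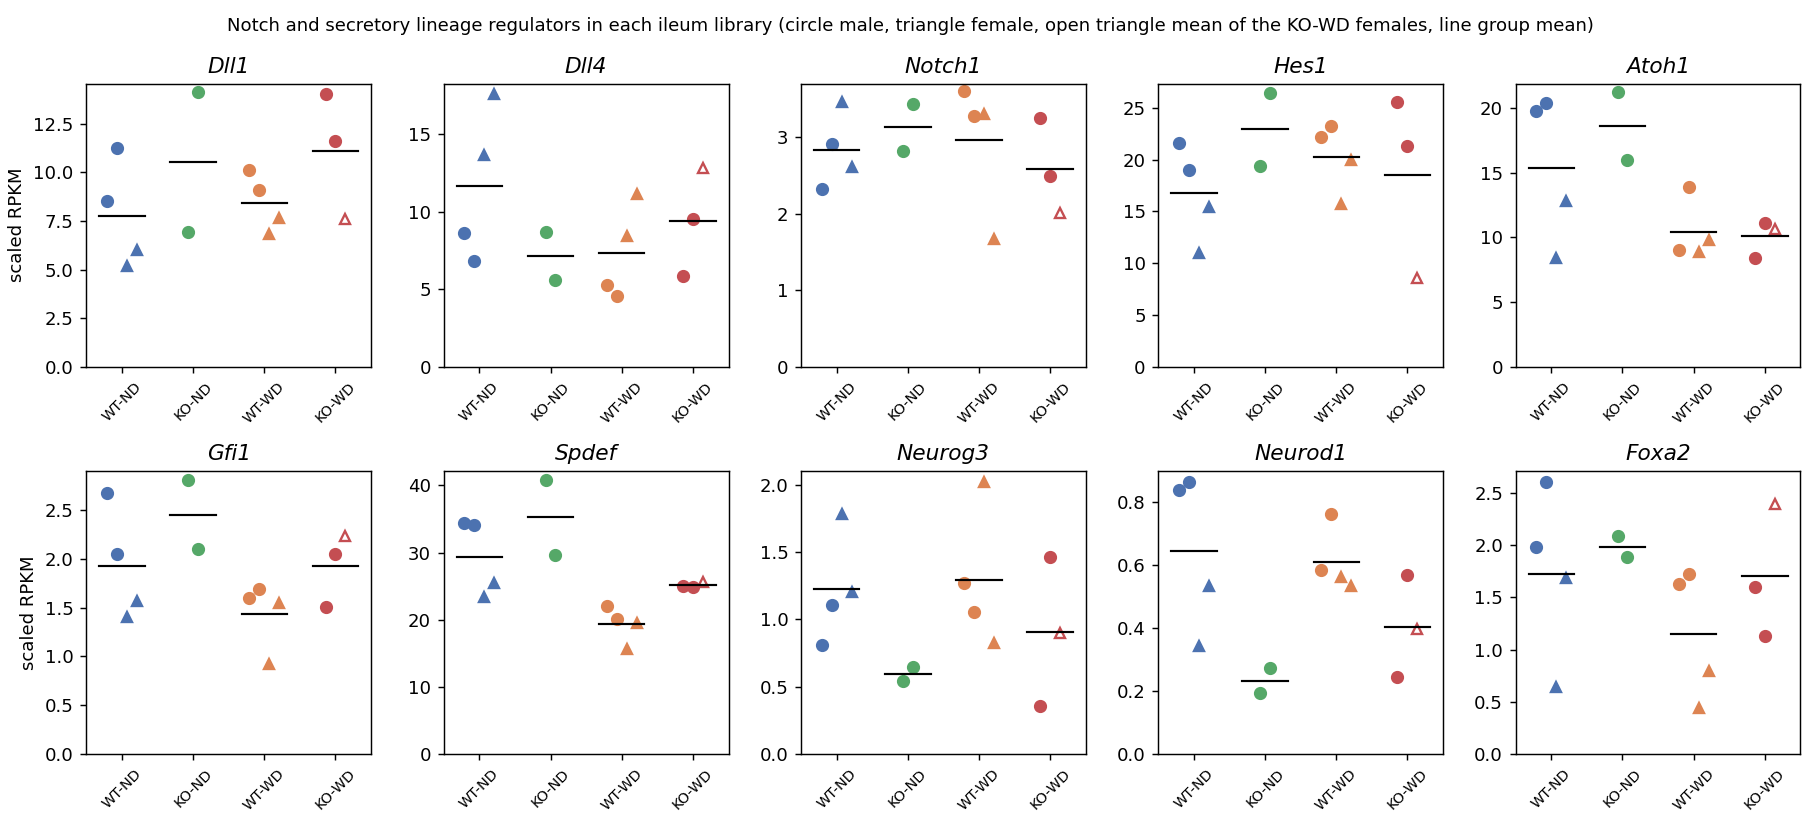
Scaled RPKM (y axis, from 0) of each of the 10 members in the 13 ileum libraries, by group (x axis; WT, Tas1r3+/+; KO, Tas1r3-/-); circles are males, triangles females, the open triangle is the mean of the WD-fed Tas1r3-/- female columns, and lines are group means. Spdef lay at 15.6 to 22.0 in the 4 WD-fed Tas1r3+/+ libraries, below all 4 ND-fed Tas1r3+/+ libraries (23.5 to 34.4).

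The start regions of 3 members are shown because Spdef and Atoh1 had the lowest unadjusted p-values for diet and Dll4 the lowest for sex. Each sequence holds the 250 bases before the RefSeq start on GRCm38.p6, written 5′ to 3′ on the strand of the gene, with motif matches in capitals. Spdef lies on the minus strand (chr17:27728952-27729201), and the capitals mark the core of the RBPJ site. Dll4 lies on the plus strand (chr2:119325534-119325783), and the capitals mark an N-box, the site class bound by HES proteins. Atoh1 lies on the plus strand (chr6:64728875-64729124), and its window held none of the motifs searched.
Spdef: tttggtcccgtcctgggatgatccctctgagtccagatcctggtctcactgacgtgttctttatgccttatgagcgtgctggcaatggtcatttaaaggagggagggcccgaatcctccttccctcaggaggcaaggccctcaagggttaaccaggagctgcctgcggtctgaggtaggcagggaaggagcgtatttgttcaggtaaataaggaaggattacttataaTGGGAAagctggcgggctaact
Dll4: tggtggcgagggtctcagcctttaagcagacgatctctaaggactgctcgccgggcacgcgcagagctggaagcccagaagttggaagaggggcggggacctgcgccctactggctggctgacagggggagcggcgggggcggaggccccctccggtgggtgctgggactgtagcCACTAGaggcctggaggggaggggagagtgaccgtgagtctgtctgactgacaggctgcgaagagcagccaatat
Atoh1: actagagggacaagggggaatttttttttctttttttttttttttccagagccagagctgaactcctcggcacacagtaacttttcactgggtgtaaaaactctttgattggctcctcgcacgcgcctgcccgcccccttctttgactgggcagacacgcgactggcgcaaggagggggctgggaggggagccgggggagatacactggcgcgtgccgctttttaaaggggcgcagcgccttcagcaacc

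Windows of 9 of the 10 members were in the RefSeq table (13 windows); Hes1 had none. The motifs were searched on both strands: the RBPJ core TGGGAA, the E-box CAGCTG and the N-box CACNAG. Of all 32851 windows of this length, 21.6% held the RBPJ core, 13% the E-box and 36.7% the N-box. Among the members, the RBPJ core was found only before Spdef, 22 bases before the start. The E-box was found before 1 start of Dll1 (132 bases) and before Neurog3 (165 bases). The N-box was found before Dll4 (75 bases), Notch1 (108 bases) and 1 start of Foxa2 (226 bases). These matches describe the letters in the windows and no binding was measured.

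Dll1, the ligand of secretory progenitors, spans chromosome 17, 15367354 to 15376872 (minus strand; GRCm38). In ND-fed Tas1r3+/+ mice, the scaled RPKM of Dll1 was 8.53 and 11.3 in males and 5.19 and 6.02 in females. In ND-fed Tas1r3-/- males it was 6.96 and 14.1. In WD-fed Tas1r3+/+ mice it was 10.1 and 9.09 in males and 6.85 and 7.65 in females. The males were thus above the females within both diets of Tas1r3+/+ mice. In WD-fed Tas1r3-/- mice, Dll1 was 14.02 and 11.6 in males and 7.61 in the female library. The means were 7.75 ± 2.74 (SD, n = 4), 10.5 ± 5.07 (SD, n = 2), 8.43 ± 1.47 (SD, n = 4) and 11.1 ± 3.24 (SD, n = 3) in the same order, and the groups overlapped in all comparisons. The fitted log2 differences of Dll1 were 0.16 (SE 0.29) for WD in Tas1r3+/+ and 0.11 (SE 0.37) in Tas1r3-/- mice.

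Dll4, a ligand of crypt epithelium that endothelial cells also express, spans chromosome 2, 119325784 to 119335962 (plus strand). Its scaled RPKM in ND-fed Tas1r3+/+ mice was 8.63 and 6.81 in males and 13.6 and 17.6 in females. ND-fed Tas1r3-/- males had 8.69 and 5.57. WD-fed Tas1r3+/+ mice had 5.26 and 4.56 in males and 8.45 and 11.1 in females. Here the females were higher in both diets, the opposite order to Dll1. WD-fed Tas1r3-/- mice had 5.88 and 9.51 in males and 12.8 in the female library. The log2 difference between WD and ND was -0.62 (SE 0.35; 95% interval -1.39 to 0.14) in Tas1r3+/+ mice and 0.34 (SE 0.46) in Tas1r3-/- mice. The interaction of Dll4, the difference between these values, was 0.96 with an interval of -0.28 to 2.21 and an adjusted p of 1.00 (limma).

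Notch1, the receptor gene, spans chromosome 2, 26457903 to 26516663 (minus strand). Its scaled RPKM was 2.33 to 3.46 in ND-fed Tas1r3+/+ mice, 2.83 and 3.44 in ND-fed Tas1r3-/- males, 1.67 to 3.61 in WD-fed Tas1r3+/+ mice and 2.01 to 3.25 in WD-fed Tas1r3-/- mice. All 4 groups overlapped, and the difference between diets in Tas1r3+/+ mice was 0.03 (SE 0.24).

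Hes1, the repressor that Notch activity induces, spans chromosome 16, 30064384 to 30067796 (plus strand). Its scaled RPKM in ND-fed Tas1r3+/+ mice was 21.6 and 19.0 in males and 11.01 and 15.4 in females. ND-fed Tas1r3-/- males had 19.4 and 26.5. WD-fed Tas1r3+/+ mice had 22.2 and 23.3 in males and 15.7 and 20.0 in females. As for Dll1, the females lay below the males of the same diet. WD-fed Tas1r3-/- mice had 25.6 and 21.3 in males and 8.57 in the female library, the lowest value of all. The groups overlapped, and the log2 difference between diets was 0.30 (SE 0.31) in Tas1r3+/+ and -0.42 (SE 0.40) in Tas1r3-/- mice. Without the averaged female library, the latter value was 0.04.

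Atoh1, the transcription factor that commits cells to the secretory fate, spans chromosome 6, 64729125 to 64731245 (plus strand) and has 1 transcript. Its scaled RPKM in ND-fed Tas1r3+/+ mice was 19.8 and 20.4 in males and 8.37 and 12.8 in females. ND-fed Tas1r3-/- males had 21.2 and 15.99. WD-fed Tas1r3+/+ mice had 9.03 and 13.9 in males and 8.84 and 9.80 in females. The 4 ND-fed males of both genotypes were thus higher than every other library. WD-fed Tas1r3-/- mice had 8.42 and 11.1 in males and 10.7 in the female library, all below both ND-fed Tas1r3-/- libraries. The log2 difference between WD and ND was -0.48 (SE 0.27; adjusted p = 0.397) in Tas1r3+/+ mice and -0.85 (SE 0.34; unadjusted p = 0.029, adjusted p = 0.800; limma) in Tas1r3-/- mice. The genotypes differed by -0.03 (SE 0.29) on the WD.

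Gfi1, which acts below Atoh1 in the choice between goblet or Paneth and enteroendocrine fates, spans chromosome 5, 107716657 to 107726036 (minus strand). Its scaled RPKM was 1.40 to 2.67 in ND-fed Tas1r3+/+ mice, 2.096 and 2.80 in ND-fed Tas1r3-/- males, 0.924 to 1.69 in WD-fed Tas1r3+/+ mice and 1.51 to 2.23 in WD-fed Tas1r3-/- mice. The groups overlapped. The WD-minus-ND difference was -0.31 (SE 0.23) in Tas1r3+/+ and -0.28 (SE 0.30) in Tas1r3-/- mice.

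Spdef, a factor of goblet and Paneth cell maturation, spans chromosome 17, 27714352 to 27728955 (minus strand). Its scaled RPKM in ND-fed Tas1r3+/+ mice was 34.4 and 34.1 in males and 23.5 and 25.6 in females. WD-fed Tas1r3+/+ mice had 22.0 and 20.2 in males and 15.6 and 19.5 in females. The WD-fed group lay entirely below the ND-fed group. ND-fed Tas1r3-/- males had 40.9 and 29.7, and WD-fed Tas1r3-/- mice had 25.1 and 24.9 in males and 25.7 in the female library. The diets did not overlap in this genotype either. Group means were 29.4 ± 5.71 (SD, n = 4) and 19.3 ± 2.69 (SD, n = 4) in Tas1r3+/+ mice on the ND and WD, and 35.3 ± 7.93 (SD, n = 2) and 25.2 ± 0.399 (SD, n = 3) in Tas1r3-/- mice. The log2 difference between WD and ND was -0.58 (SE 0.18; 95% interval -0.96 to -0.20) in Tas1r3+/+ mice, with an unadjusted p of 0.0062 and an adjusted p of 0.149 (limma). In the exact two-sided permutation test p was 0.0286, the smallest that 4 against 4 libraries allow. In Tas1r3-/- mice the difference was -0.46 (SE 0.23; adjusted p = 0.855), and 3 against 2 libraries cannot reach an exact permutation p below 0.1.

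On the WD, Spdef was higher in all 3 Tas1r3-/- libraries than in all 4 Tas1r3+/+ libraries, a log2 difference of 0.38 (SE 0.19; unadjusted p = 0.066, adjusted p = 1.00; exact permutation p = 0.0571). Groups that did not overlap made up 2.81% of the 19042 genes in this comparison (1.66% with Tas1r3-/- higher), 11.3% in the diet comparison of Tas1r3+/+ mice (7.4% with the WD lower) and 20.9% in that of Tas1r3-/- mice (12.2% with the WD lower). Spdef was the only member without overlap in the first 2 of these, and Spdef and Atoh1 were in the third.

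Neurog3, which specifies enteroendocrine cells, spans chromosome 10, 62133090 to 62134763 (plus strand). It was 0.808 to 1.79 in ND-fed Tas1r3+/+ mice, 0.540 and 0.643 in ND-fed Tas1r3-/- males, 0.828 to 2.02 in WD-fed Tas1r3+/+ mice and 0.357 to 1.46 in WD-fed Tas1r3-/- mice. Neurod1, which acts after Neurog3 in the endocrine lineage, spans chromosome 2, 79452521 to 79456751 (minus strand), and was 0.344 to 0.864, 0.194 and 0.272, 0.534 to 0.761, and 0.244 to 0.567 in the same order. Both genes were lower in the 2 ND-fed Tas1r3-/- libraries than in every ND-fed Tas1r3+/+ library, and 11.6% of all genes tested were lower without overlap in this comparison (22.6% in either direction). The log2 difference was -0.63 for Neurog3 (SE 0.37; adjusted p = 0.887) and -0.62 for Neurod1, with an exact permutation p of 0.133 for each. The smallest p that 4 against 2 libraries allow is 0.0667, and 4.96 to 35.2 reads per library supported Neurog3. Both ND-fed Tas1r3-/- libraries were from males, and the 2 ND-fed Tas1r3+/+ males had 0.838 and 0.864 for Neurod1 and 0.808 and 1.11 for Neurog3.

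Foxa2, a forkhead factor of goblet and enteroendocrine cells, spans chromosome 2, 148042877 to 148046969 (minus strand). It was 0.641 to 2.60 in ND-fed Tas1r3+/+ mice, 1.88 and 2.08 in ND-fed Tas1r3-/- males, 0.440 to 1.73 in WD-fed Tas1r3+/+ mice and 1.13 to 2.39 in WD-fed Tas1r3-/- mice, with overlap throughout. The difference between diets in Tas1r3+/+ mice was -0.43 (SE 0.36).

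How far the gene values rest on single transcripts differed between members. Atoh1, Dll4, Notch1, Neurog3 and Neurod1 have 1 transcript in the table. A median of 46.6% of the Spdef value came from a transcript of 1200 bases annotated as a retained intron, and 43.8% from a protein-coding one of 1921 bases. In Dll1, a retained-intron transcript of 751 bases made up a median of 31.6%. Its share was 13.2% to 23.1% in ND-fed and 30.1% to 53.6% in WD-fed Tas1r3+/+ libraries. In Tas1r3-/- libraries the diets overlapped, with 31.6% to 43.3% on the ND and 22.3% to 55.6% on the WD. A retained-intron transcript made up a median of 23.2% of Hes1. The 3 Gfi1 transcripts are all protein-coding, and the share of the one of 2860 bases ranged from 0.382% to 92.9% at 24 to 84 reads per gene and library. From protein-coding transcripts alone, a choice made after seeing the data, the log2 difference of Spdef between diets was -0.73 (SE 0.26) in Tas1r3+/+ and -0.69 (SE 0.34) in Tas1r3-/- mice. Dll1 turned from 0.16 to -0.25 (SE 0.22) in Tas1r3+/+ mice.

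**Figure D2:**
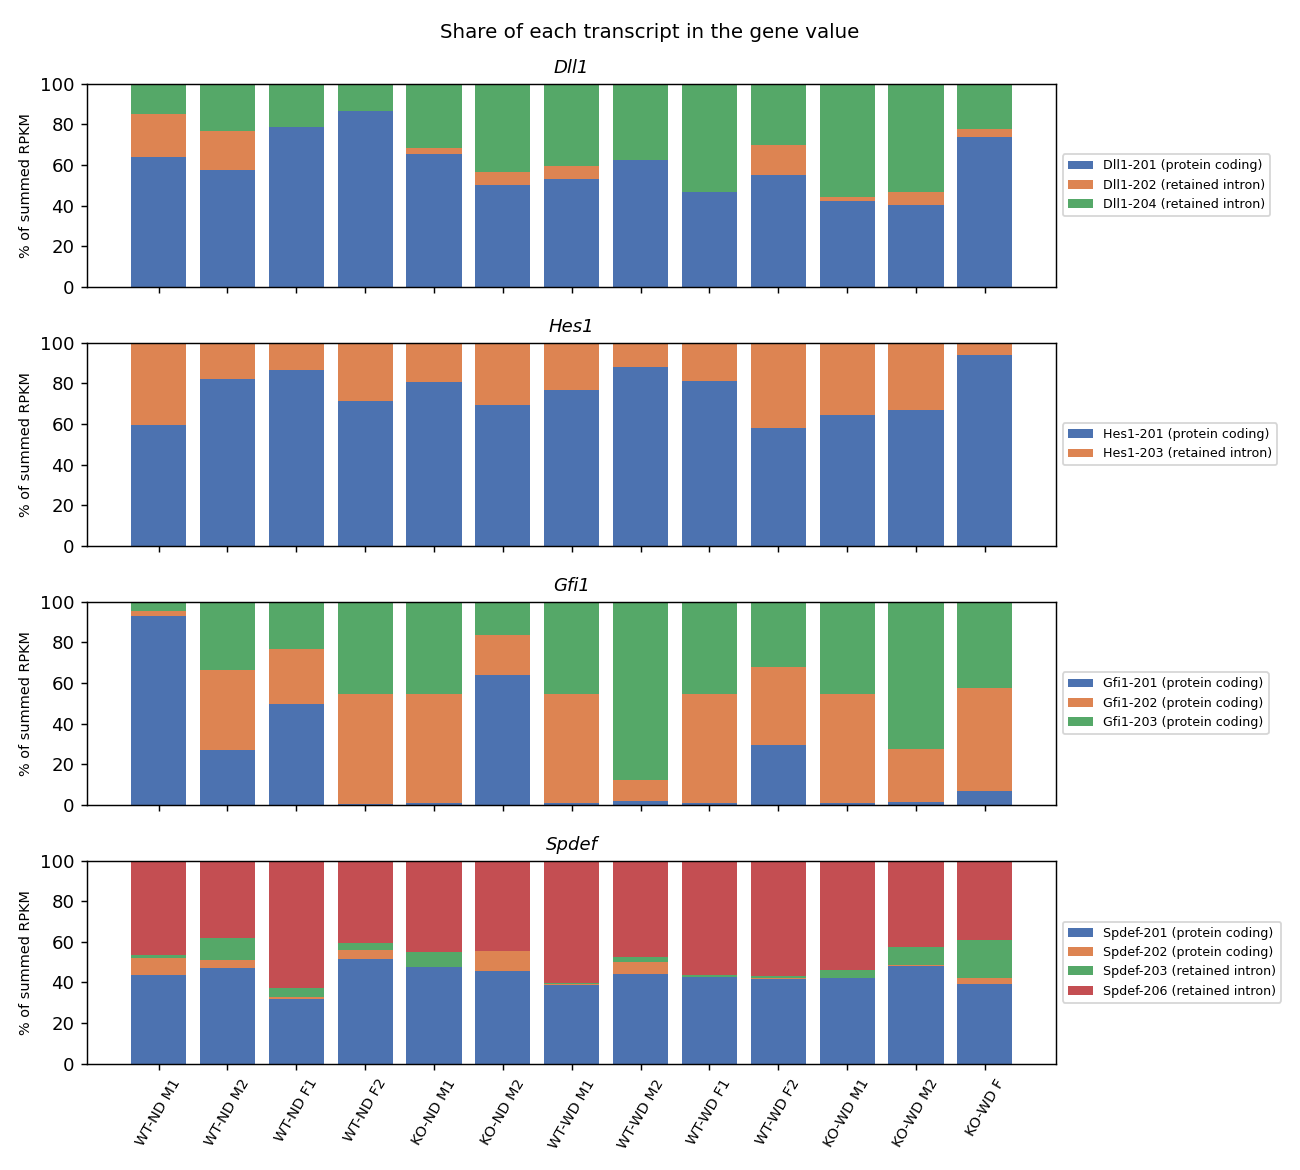
Share of each annotated transcript in the summed RPKM of Dll1, Hes1, Gfi1 and Spdef (y axis, percent) in each library (x axis); colors are transcripts with their annotation. A retained intron (median 46.6%) and a coding transcript (median 43.8%) carry most of Spdef, and the share of the 2860-base Gfi1 transcript ranges from 0.382% to 92.9%.

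Some members overlap other genes: Dll1, Dll4, Notch1, Gfi1, Neurog3 and Neurod1 each share bases with another annotated gene, and Neurod1 lies in the span of Cerkl on the same strand. How the reads were counted by strand is not given in the sources used here, so their values are uncertain to that extent. Atoh1, Hes1, Spdef and Foxa2 have no such overlap.

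The comparisons asked whether the WD or the loss of TAS1R3 was accompanied by differences in these regulators. The call threshold was a fold change of 2 or more with an adjusted p below 0.01. In WD-fed against ND-fed Tas1r3+/+ mice, 0 of the 9 tested members were called (0.00525% of all genes), 0 had an adjusted p under 0.05 (0.126% of all genes), and 1, Spdef, had an unadjusted p under 0.05 (16.1% of all genes). In WD-fed against ND-fed Tas1r3-/- mice, 0 members were called (0% of all genes), 0 had an adjusted p under 0.05 (0.00525% of all genes), and 1, Atoh1, had an unadjusted p under 0.05 (6.03% of all genes). Between genotypes on the ND, 0 members were called (0% of all genes) and 0 had an unadjusted p under 0.05 (4.82% of all genes). On the WD, 0 members were called (0.0105% of all genes), 0 had an adjusted p under 0.05 (0.0263% of all genes), and 0 had an unadjusted p under 0.05 (2.65% of all genes). For the interaction of genotype and diet, 0 members were called (0% of all genes) and 0 had an unadjusted p under 0.05 (1.46% of all genes). The lowest adjusted p of a member, by limma, was 0.149 in the first comparison and at least 0.800 in the others.

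The intervals show what these numbers of libraries leave possible. The interval of the Atoh1 difference between genotypes on the WD ran from -0.66 to 0.60, and that of Hes1 from -0.98 to 0.48. Median fitted differences over the 9 members were -0.31 and -0.25 for diet in Tas1r3+/+ and Tas1r3-/- mice, and 0.26 and 0.33 for genotype on the ND and WD; the medians over all genes were 0.00, -0.04, 0.06 and 0.01. The comparisons share groups and are not independent of one another. In males alone, the genotype differences on the ND were nearer to 0 than those over all libraries for Dll1 (0.02), Dll4 (-0.13), Hes1 (0.16), Gfi1 (0.04), Spdef (0.02) and Neurog3 (-0.41). Atoh1 (-0.12 in males, 0.34 over all) and Foxa2 (-0.16 and 0.25) turned in sign, and Notch1 was 0.22 in males and 0.13 over all.

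**Figure D3:**
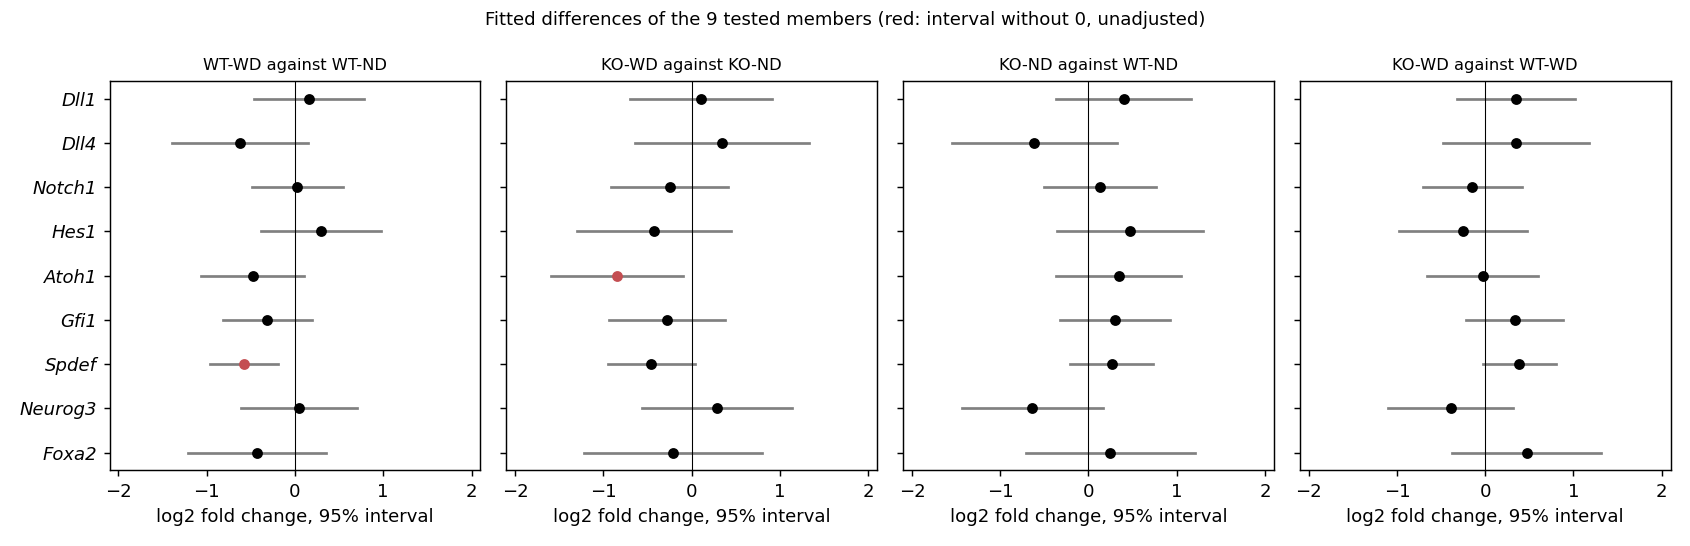
Fitted log2 fold changes (points) with unadjusted 95% intervals (lines) of the 9 tested members in the 4 comparisons of groups (WT, Tas1r3+/+; KO, Tas1r3-/-); red marks intervals without 0. Only Spdef for diet in Tas1r3+/+ mice (-0.58) and Atoh1 for diet in Tas1r3-/- mice (-0.85) are red.

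Atoh1 and Spdef differed from ND in the same direction in both genotypes, and after seeing these values the diet difference was averaged over the genotypes. The log2 difference was -0.67 (SE 0.22) for Atoh1, with an unadjusted p of 0.0095 and an adjusted p of 0.134, and -0.52 (SE 0.14) for Spdef, with an unadjusted p of 0.0034 and an adjusted p of 0.0882 (limma). Of all genes, 17.9% had an unadjusted p under 0.05 here and 1.37% an adjusted p under 0.05, and no other member had an unadjusted p under 0.05. In males alone, Atoh1 was 15.99 to 21.2 in 4 ND-fed and 8.42 to 13.9 in 4 WD-fed libraries, a difference of -0.86 (SE 0.19; adjusted p = 0.0557). Spdef was 29.7 to 40.9 and 20.2 to 25.1 in the same males (-0.58, SE 0.14; adjusted p = 0.0642). Of all genes, 26.9% had an unadjusted p under 0.05 in males alone. Gfi1 and Foxa2 did not overlap between the diets in males either, and 16.2% of all genes did not (8.85% with the WD lower). Females of Tas1r3+/+ mice differed by -0.15 (SE 0.32) for Atoh1 and -0.47 (SE 0.25) for Spdef, and whether the sexes differ in this was not tested. Values of other cell types beside these: the leukocyte marker sum was 14.1 to 68.4 in ND-fed and 35.3 to 49.3 in WD-fed Tas1r3+/+ mice, with 9 of 9 markers higher on the WD by a fitted median of 0.52 and 0 of them at or under 0.1 scaled RPKM in all libraries. The adipocyte marker sum was 9.78 to 80.1 and 6.30 to 25.0 in these groups, with 4 of 4 markers lower on the WD (median -1.50), of which Adipoq keeps a median of 3.89% of its value without transcripts that hold values of more than 6 significant digits, and all 6 endothelial markers were higher (median 0.41). Their part in the result was not tested.

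The sexes were compared after seeing the data. With sex as a term beside the 4 groups, 3 of the 9 tested members had an unadjusted p under 0.05 (19.7% of all genes) and 1 an adjusted p under 0.05 (0.683% of all genes). Dll4 was lower in males by a log2 difference of -0.89 (SE 0.18; adjusted p = 0.0483). Its scaled RPKM was 4.56 to 9.51 (median 6.34) in 8 males and 8.45 to 17.6 (median 12.8) in 5 females. Hes1 was higher in males by 0.71 (SE 0.18; adjusted p = 0.0760), with 19.0 to 26.5 (median 21.9) in males and 8.57 to 20.0 (median 15.4) in females. Dll1 was higher in males by 0.61 (SE 0.18; adjusted p = 0.107). The ranges of the sexes overlapped for each of the 3 genes, while 1.84% of all genes had no overlap. Exact two-sided permutation tests over all libraries gave p = 0.00389 for Dll4, 0.00233 for Hes1 and 0.00544 for Dll1. These tests took no account of the groups, over which the sexes were not balanced.

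In the 8 Tas1r3+/+ libraries alone, where each diet had 2 of each sex, the differences were -0.94, 0.48 and 0.57 for Dll4, Hes1 and Dll1, with adjusted p-values of 0.173, 0.311 and 0.274 (limma). Exact two-sided permutation tests in these libraries gave p = 0.0571 for Dll4 and 0.0571 for Hes1. For Dll1 the p was 0.0286, the smallest that 4 against 4 libraries allow. The adjusted p of Dll4 (limma) was 0.0504 to 0.157 when single libraries were left out, so its adjusted p under 0.05 needed every library. Over all libraries it was 0.0538 with scaling by medians of log ratios, 0.0837 from protein-coding transcripts and 0.0358 without scaling. From protein-coding transcripts the difference of Dll1 was 0.25 (SE 0.18) and that of Hes1 0.55 (SE 0.13). Summed endothelial markers were 32.7 to 121 (median 51.7) in males and 25.0 to 149 (median 45.9) in females. Summed crypt stem cell genes were 153 to 320 in males and 115 to 158 in females, and summed absorptive enterocyte genes 1523 to 10821 in males and 7195 to 20709 in females. No gene of these 3 lists was at or under 0.1 scaled RPKM in all libraries, and their part in the result was not tested.

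**Figure D4:**
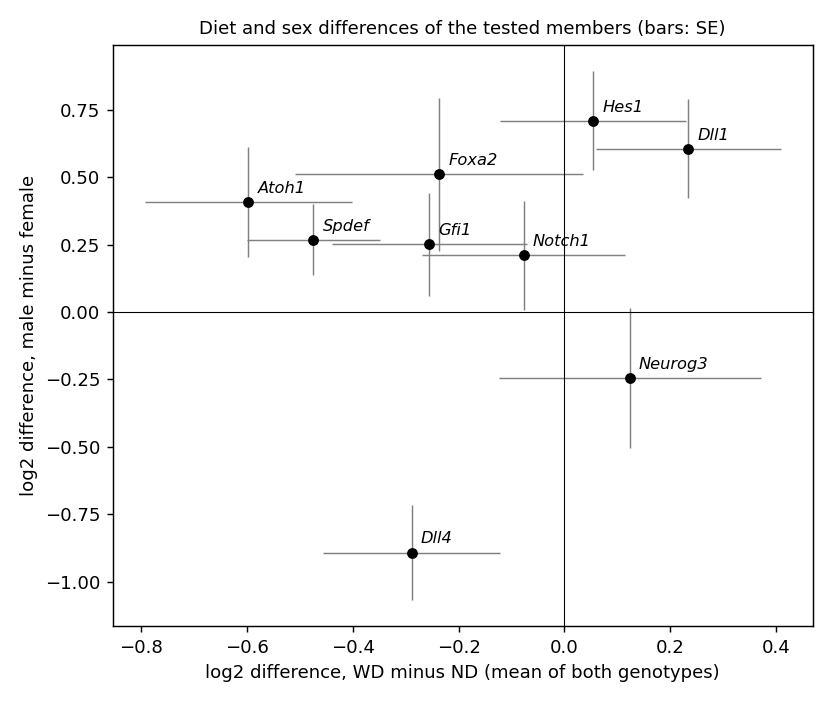
Log2 difference between WD and ND averaged over the genotypes (x axis) and between males and females (y axis) of the 9 tested members, fitted together; bars are SE. Atoh1 (-0.60) and Spdef (-0.47) lie farthest to the left, and Dll4 (-0.89) lowest.

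Relations between members over the 13 libraries were computed for 8 pairs. Atoh1 and Spdef varied together (Pearson r = 0.80, permutation p = 0.00091, adjusted p = 0.00656; Spearman rho = 0.72, permutation p = 0.00742, adjusted p = 0.0297), as did Atoh1 and Gfi1 (r = 0.77, permutation p = 0.00164, adjusted p = 0.00656; rho = 0.84, permutation p = 0.00062, adjusted p = 0.00496). Without the 2 libraries farthest from the median of Atoh1, r was 0.65 and 0.72. Centred by group it was 0.76 and 0.78, and in the 8 males alone 0.80 and 0.84. Spdef and the goblet mucin gene Muc2 had r = 0.67 (permutation p = 0.0112, adjusted p = 0.0299) and rho = 0.63 (permutation p = 0.0247, adjusted p = 0.0658). It had r = 0.61 without 2 libraries and r = 0.67 in the males, but r = 0.30 after centring by group, so the relation was weak within groups.

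Atoh1 and Hes1, which HES1 links as a repressor, had r = 0.28 (permutation p = 0.361, adjusted p = 0.413) and rho = 0.15 (permutation p = 0.617, adjusted p = 0.617) over all libraries. Their r was 0.32 without 2 libraries, 0.33 centred by group and 0.53 without scaling, but -0.53 in the 8 males. Atoh1 and Dll1 had r = 0.14 over all libraries (permutation p = 0.644, adjusted p = 0.644; rho = 0.20, permutation p = 0.504, adjusted p = 0.576). Their r was 0.19 without 2 libraries, 0.34 centred by group and 0.41 without scaling, but -0.52 in the males. Dll4 and Notch1 had r = -0.54 (permutation p = 0.0572, adjusted p = 0.114; rho = -0.53, permutation p = 0.0666, adjusted p = 0.107) and r = -0.88 in the males, but r = 0.09 without scaling. Neurog3 and Neurod1 had r = 0.44 (permutation p = 0.13, adjusted p = 0.173; rho = 0.41, permutation p = 0.163, adjusted p = 0.217), which was 0.0011 after centring by group and 0.72 in the males. Neurod1 and the enteroendocrine granule gene Chga had r = 0.51 (permutation p = 0.0736, adjusted p = 0.118; rho = 0.55, permutation p = 0.0567, adjusted p = 0.107).

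**Figure D5:**
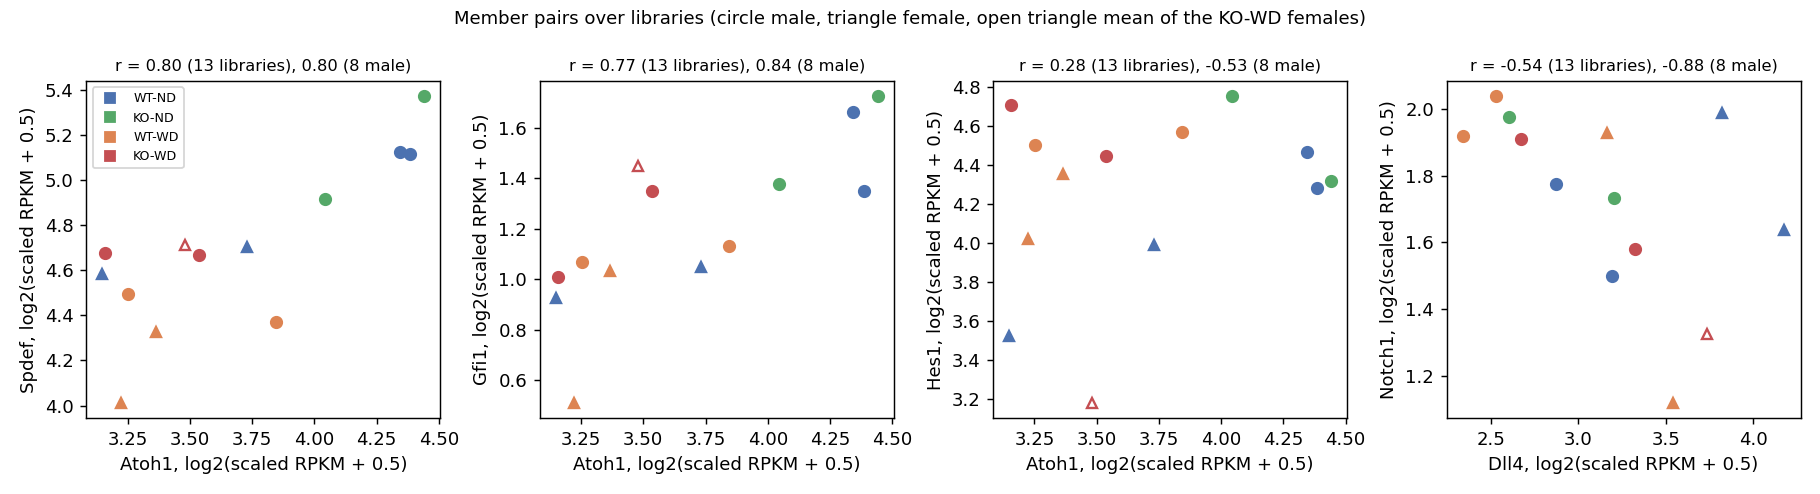
Log2 scaled RPKM with a pseudocount of 0.5 of 4 member pairs (x and y axes); each point is a library, colored by group, with circles for males and triangles for females. Atoh1 and Spdef (r = 0.80) and Atoh1 and Gfi1 (r = 0.77) vary together, whereas Atoh1 and Hes1 have r = 0.28 over all libraries, 0.33 centred by group and -0.53 in males.

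The genes most like each member over the 13 libraries, by Pearson r and as a description, were Prss8, Gm16046 and Ern2 for Atoh1 (0.94, 0.93 and 0.93), Abcb8, Stard10 and Rap1gap for Spdef (0.90, 0.89 and 0.88) and 1810019D21Rik, Ovol2 and Cdkn3 for Gfi1 (0.88 each). They were Creb3, Gda and Atp6v0c for Dll4 (0.95, 0.91 and 0.91), Ppig, Msh3 and Gm42627 for Dll1 (0.90, 0.90 and 0.88), Bmp4, Psap and Ece1 for Notch1 (0.97, 0.96 and 0.95) and Ccdc77, Armc10 and Gm9644 for Hes1 (0.94, 0.92 and 0.87). For Neurog3 they were Gm28529, Gm28263 and Cd209f (0.84, 0.82 and 0.80), and for Foxa2 Gm12359, Srrm2 and Hoxb6 (0.93, 0.86 and 0.84). These are the highest of all 19042 genes and share library, depth and sex with the member.

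Of the other listed genes, 0 had an adjusted p under 0.05 in the 5 comparisons of genotype and diet. In WD-fed against ND-fed Tas1r3+/+ mice, the 28 genes of Notch processing and transduction had a median of 0.01 (15 were higher), against a median of 0.00 and 50.3% higher over all genes, and 3 of the 28 had an unadjusted p under 0.05 (16.1% of all genes). The 4 Notch receptors had a median of 0.05 and the 4 ligands in the table a median of 0.07. Of 8 tested Notch targets 5 were higher, with a median of 0.37. Mib1, the ubiquitin ligase that activates Delta ligands in the sending cell, was higher by 0.82 (SE 0.17; adjusted p = 0.0688), and the target Nrarp, a feedback inhibitor of Notch, lower by a log2 difference of -0.60 (SE 0.16; adjusted p = 0.114). Both were picked after their values were seen. In the diet difference averaged over genotypes, which was added after seeing the data, Mib1 was higher on the WD by 0.56 (SE 0.14; adjusted p = 0.0636). Of all genes, 1.37% had an adjusted p under 0.05 there. With sex as a covariate, Mib1 was higher by 0.59 (SE 0.13; adjusted p = 0.0263). In that fit the adipocyte gene Plin1 was lower on the WD, with a log2 difference of -2.29 (adjusted p = 0.0422). The share of all genes under 0.05 with this covariate is not given here, so these genes cannot be set against it. Between the sexes, 4 listed genes beside Dll4 had an adjusted p under 0.05 and were higher in males: the transcription factor genes Sox9 (0.87, SE 0.13; adjusted p = 0.0228) and Sox4 (0.89, SE 0.16; adjusted p = 0.0444), Itln1 (1.29; adjusted p = 0.0351) and Chgb (0.90; adjusted p = 0.0483). In WD-fed against ND-fed Tas1r3+/+ mice, 11 of 16 tested secretory transcription factors, which include 5 members, were lower. Their median was -0.20, against a median of 0.00 and 50.3% higher over all genes.

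Between genotypes on the WD, 14 of these 16 secretory factors were higher in Tas1r3-/- mice (median 0.25), compared with 51.2% of all genes, and 0 of them had an unadjusted p under 0.05. Klf4, a goblet cell factor among these 14, holds values of more than 6 significant digits, and its difference turned from 0.26 to -0.34 without the affected transcripts. On the ND, 11 of the 16 were higher (median 0.24), compared with 55.9% of all genes. The products of the lineages did not follow one direction. All 7 Paneth products were higher in Tas1r3-/- mice on both diets (medians 1.26 on the ND and 1.79 on the WD), the goblet products were higher in 2 of 7 cases with ND feeding and 3 of 7 with WD feeding, and all 7 absorptive enterocyte genes were lower on both diets (medians -1.14 and -1.04). Every transcript of Lyz1, Defa22 and Defa24 holds a value of more than 6 significant digits in some library. Nothing of these genes is left without the affected transcripts, and the Paneth count and medians rest partly on them. The other Paneth products, Ang4, Itln1, Mmp7 and Mptx2, were higher by 1.17 to 2.45 on the ND and by 0.67 to 2.44 on the WD. Both ND-fed Tas1r3-/- libraries were male. With sex as a term beside the groups, Ang4 (1.58), Itln1 (1.29), Mmp7 (0.73) and Mptx2 (2.30) were also higher in males. The absorptive enterocyte genes were all lower in males in that fit, by log2 differences of -1.26 to -0.40. Of the 16 secretory factors, Neurog3 (-0.25), Klf4 (-0.33), Xbp1 (-0.11) and Isl1 (-0.03) were lower in males. The others were higher in males, from Foxa1 (0.19) to Sox4 (0.89). The part of sex in these genotype differences was not tested. Of 11 enteroendocrine products 4 were higher with ND and 3 with WD feeding.

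Among the lineage markers, Muc2 was 783 to 1080 scaled RPKM in ND-fed and 265 to 642 in WD-fed Tas1r3+/+ mice, 648 and 884 in ND-fed and 780 to 1160 in WD-fed Tas1r3-/- mice. The groups of Tas1r3+/+ mice did not overlap, and the log2 difference was -1.42 (SE 0.28; adjusted p = 0.0688). Between the WD-fed genotypes it was 1.41 (SE 0.30; adjusted p = 0.421). Lyz1, the Paneth lysozyme gene, was 1172 to 2927 in WD-fed Tas1r3+/+ and 5707 to 6793 in WD-fed Tas1r3-/- mice (1.93, SE 0.50; adjusted p = 1.00). Such long values were found in 7 of 150 listed genes: Klf4, Muc2, Lyz1, Defa22, Defa24, Gcg and Adipoq. Without the affected transcripts a median of 33.5% of the Muc2 value was left, its difference between diets in Tas1r3+/+ mice was -2.17, and nothing was left of Lyz1. Such values were found in 0 of the 10 members. Chga, the tuft cell kinase gene Dclk1 and the stem cell receptor gene Lgr5 differed by -0.30 (SE 0.27), 0.42 (SE 0.25) and 0.36 (SE 0.37) between diets in Tas1r3+/+ mice, and Fabp6 by -0.66 (SE 0.62), with adjusted p-values of 0.435 to 0.666 by limma.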

How the data were processed

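Ileal RNA was sequenced by the authors on an Ion Proton, mapped to GRCm38 (mm10) in Partek Flow and quantified per Ensembl transcript. The deposited values are RPKM per transcript and were not counts, although the file name calls them counts. Of the low values of genes with 1 annotated transcript, at least 86.5% per library were whole multiples of 1 read (within 0.02 reads). The size of 1 read was itself fitted to these values. 1 read on 1 kb corresponded to an RPKM of 0.0692 to 0.139, which limits the precision at low levels. Per-sample and series values differed by at most 4.99e-08. Column sums were 817011 to 819916 on the ND and 542371 to 672933 on the WD, so the library total behind the values may differ from that of RPKM. Of the transcripts, 98.2% matched GENCODE M21, from which coordinates were taken. Of 59258 transcripts, 102 in 70 genes held the 169 values with more than 6 significant digits.

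Transcripts were summed per gene. A gene entered the fits when 2 or more of the 13 libraries reached RPKM 1, which 19042 genes did. Scaling factors were trimmed means of log ratios (30% of ratios and 5% of levels trimmed), 0.5 was added, and log2 values were fitted with limma 3.58.1 (R 4.3.3), with the 4 groups in 1 model, limma-trend moderation and p-values adjusted over the whole table (Benjamini-Hochberg). Fold changes are on the log2(value + 0.5) scale, which understates changes of low genes. Exact two-sided permutation tests and correlations (100000 permutations, adjusted over 8 pairs) used Python 3.11.15 with numpy 2.4.6 and pandas 2.3.3. No label says that numbered samples come from separate litters, and p-values measure the spread between these libraries. The limma procedure was tested on simulated data.

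The members and gene lists were chosen with earlier results of these data known. Named genes are the members, other listed genes with an adjusted p under 0.05, the markers Muc2, Lyz1, Chga, Dclk1, Lgr5 and Fabp6, and the 3 genes most correlated with each member. Mib1 and Nrarp in the planned comparisons, and genes named for their values of more than 6 significant digits or to complete the Paneth list, fall outside this rule and were chosen after their values were seen. Alternatives were other scalings, pseudocounts and filters, sex as a covariate, a replicate block, 2 groups alone, 1 sex alone, other transcript choices, all 16 columns and each library left out. Added after seeing the data were the averaged diet difference, the sex difference, protein-coding transcripts alone, females alone and the correlations in males alone.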

Additional observations from a re-analysis of the deposited data

Results flagged for a closer look

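In 2 of the 20 sets of 4 libraries examined, which are the 10 members in the ND-fed and the WD-fed Tas1r3+/+ groups, 1 library stood far from the other 3 on the log2 scale. Notch1 in the second WD-fed Tas1r3+/+ female was 1.67 scaled RPKM, compared with 3.28 to 3.61 in the other libraries of that group. Gfi1 in the first WD-fed Tas1r3+/+ female was 0.924, compared with 1.54 to 1.69 in the others. About 1 in 20 groups is marked in this way by chance. Without the second WD-fed female, the log2 difference of Notch1 between diets was 0.22, and without the first WD-fed female that of Gfi1 was -0.17.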

How the results depend on the processing

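All numbers here are log2 differences or counts of the 9 tested members, and the protein-coding and female-only settings were chosen after seeing the data. Over 995 refits of the member differences, 41 changed direction, and the cause was not tested. Of 130 refits of the count of members called, the unscaled one called 1 member (Spdef) between diets in Tas1r3+/+ mice and the others called none. The count at an unadjusted p under 0.05 between diets in Tas1r3+/+ mice was 4 without scaling, 2 with sex as a covariate, 2 in males, 0 with the most abundant transcript, 0 in females and 1 to 3 with single libraries left out. In Tas1r3-/- mice it was 2 without scaling, 2 in males, 2 with all 16 columns and 0 to 1 with single libraries left out. Atoh1 dropped out there without the second ND-fed Tas1r3+/+ female, either ND-fed Tas1r3-/- male or the first WD-fed Tas1r3-/- male. Between genotypes on the ND it was 1 without the filter and 1 with 16 columns, on the WD 1 with sex and 1 with 16 columns, and for the interaction 1 with 16 columns.

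Between diets in Tas1r3+/+ mice, Dll1 was -0.25 without scaling, -0.030 in males, -0.22 with the most abundant and -0.25 with protein-coding transcripts. Notch1 was -0.34 without scaling, -0.024 with protein-coding transcripts and -0.29 in females. Hes1 was -0.13 without scaling, Gfi1 0.39 with the most abundant transcript, and Neurog3 -0.26 without scaling and -0.11 in females. In Tas1r3-/- mice, Dll1 was -0.24 without scaling, -0.055 with the most abundant and -0.090 with protein-coding transcripts, Hes1 0.041 in males and Gfi1 0.30 with the most abundant transcript. Between genotypes on the ND, Notch1 was -0.059 without scaling, Atoh1 -0.12 in males, and Foxa2 -0.0084 with sex and -0.16 in males. On the WD, Hes1 was 0.038 and Foxa2 -0.23 in males.

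With single libraries left out, the diet difference in Tas1r3+/+ mice was -0.035 to 0.35 for Dll1, -0.071 to 0.22 for Notch1 and -0.13 to 0.16 for Neurog3. In Tas1r3-/- mice it was -0.34 to 0.61 for Dll1 and -0.72 to 0.041 for Hes1. The genotype difference on the ND was -0.14 to 0.81 for Dll1, -0.032 to 0.19 for Notch1, -0.040 to 0.44 for Spdef and -0.12 to 0.39 for Foxa2, and on the WD -0.55 to 0.21 for Hes1 and -0.13 to 0.11 for Atoh1.

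The replicate numbers were not treated as pairing the samples, since not every pair correlated above 0.1. Deviations of same-numbered ND-fed and WD-fed Tas1r3+/+ libraries correlated at -0.00564, 0.285, 0.471 and 0.296, and 3 of 4 correlated best with their own number. This could hint at pairing, but same-numbered libraries also share their sex, and the data do not tell these apart. WD-fed Tas1r3+/+ and Tas1r3-/- libraries correlated at 0.567 and 0.416 for males and -0.14 for the female. In the other pairs of groups the correlations were -0.193 to 0.202. With a replicate block, the count at an unadjusted p under 0.05 was 2 and 0 for diet in Tas1r3+/+ and Tas1r3-/- mice and 1 for genotype on the WD, and Notch1 was -0.0022 for genotype on the ND. Depth limits Neurog3, Neurod1 and Foxa2 most, with 4.96, 6 and 9 reads in their lowest libraries.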
